A study of Drosophila melanogaster with 4 samples.

Results

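The genes examined here encode the larval serum proteins of *Drosophila melanogaster* (*Lsp1alpha*, *Lsp1beta*, *Lsp1gamma* and *Lsp2*) and the fat body proteins *Fbp1* and *Fbp2*. Membership was set by gene symbol and not by a threshold on their values. Of the 6 genes listed, 3 had a probe that the platform annotation names, among 12058 genes with a probe in all. These are *Lsp2* (CG6806, chromosome arm 3L), *Fbp1* (CG17285, 3L) and *Fbp2* (CG3763, 2L), with 1 probe each. The other 3 genes, *Lsp1alpha*, *Lsp1beta* and *Lsp1gamma*, matched no named probe by symbol, gene identifier or transcript accession and were not analysed here. Of the 16416 probes, 3151 carry no gene name in that annotation.

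Whole larvae of the third instar with the genotype w1118;+;trxE3/trxB11, in which both alleles of *trx* (*trithorax*, a histone methyltransferase gene) are mutant, were compared with w1118;+;+ larvae of an isogenic wild-type line on 2-color arrays of spotted oligonucleotides. Larvae of both genotypes were raised on food with bromophenol blue and staged by the dye in the gut, and the methods describe them as wandering larvae, early in the third instar and without the *Tb* marker of the balancer chromosome. The X, Y and second chromosomes of the mutant stocks came from the isogenic line, whereas the chromosome with the *trx* alleles is not named among those transferred. There were 4 arrays, which make 2 biological replicates (2 extractions of mutant RNA) with 2 arrays each and the dyes swapped between them. Arrays 1 and 2 belong to replicate 1, arrays 3 and 4 to replicate 2, and mutant RNA was in Cy3 on arrays 1 and 3 and in Cy5 on arrays 2 and 4. Wild-type RNA was a pool used on every array. Whether the extractions came from separate cultures is not stated, so that a p covers the spread between extractions and not that among wild-type larvae.

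Larval serum proteins are hexamerins, large secreted proteins of insects that are made of subunits related to hemocyanins. The fat body, which is the counterpart of liver and adipose tissue in the fly, synthesizes them during larval growth and releases them into the hemolymph, and near the end of larval life it takes them up again and keeps them in protein granules as a reserve of amino acids for metamorphosis. *Fbp1* encodes a fat body receptor for larval serum proteins, and whether it takes up the product of *Lsp2* was not examined here. *Fbp2* encodes a protein of the alcohol dehydrogenase family that is also stored in the fat body. In this tissue the steroid hormone ecdysone governs transcription of *Fbp1* and the uptake of serum proteins.

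Levels are given as log2 of the ratio between mutant and wild type, so that 1 is a 2-fold higher level in the mutant and 0 is no difference. Each array gave values for 11199 to 12775 probes. Precision is limited by how few arrays there are. The ratios of all probes correlated with Pearson's r of 0.881 to 0.904 between the arrays of a replicate and of 0.71 to 0.824 between arrays of different replicates. *trx* itself had ratios of 0.22, 0.13 and 0.28 on arrays 2, 3 and 4 and no value on array 1. Its mean was 0.21 (standard error 0.0473, adjusted p = 0.0859), so the transcript of the mutated gene was not lower in the mutant. A gene was called where its mean over the 2 replicates differed from 0 at an adjusted p under 0.05 (limma, Benjamini-Hochberg over 10042 genes tested) and by at least 2-fold. Of these 10042 genes, 3833 had an unadjusted p under 0.05 in limma. This is the background for the counts at that limit given below.

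*Lsp2*, the gene of a hexamerin that is made of a single kind of subunit, rose strongly in *trx* mutant larvae, to 15.8 times its level in wild-type larvae. Of the 3 storage protein genes with values, 1 was thus called higher and 0 lower, where 1.57% of all genes tested were called higher and 2.52% lower. Neither *Fbp2*, at 2.11-fold, nor *Fbp1*, at 1.21-fold, passed the test. All 8 ratios measured for the 3 genes were above 0. The arrays held no value for the remaining 4 of 12 possible ratios, as those spots had been removed. The criteria for removal were spot size, signal over background, saturation and how well different ratio estimates matched, and which of them applied to a given spot is not recorded.

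The ratio of *Lsp2* was 3.67 on array 1, 4.50 on array 2 and 3.87 on array 3, with no value on array 4. Each of these is a difference of more than 12-fold, namely 12.7-fold, 22.7-fold and 14.6-fold, and they came from both replicates and both dye orientations. The dye was not balanced between replicates, as mutant RNA in Cy5 gave a value on array 2 of replicate 1 only. The replicate means were 4.09 in replicate 1 and 3.87 in replicate 2, whose mean, the log2 fold change, was 3.98 (standard error 0.0796, 95% confidence interval 3.72 to 4.24, adjusted p = 0.0142, n = 2, limma). On the linear scale the interval is 13.1-fold to 18.9-fold. The replicates differed by 0.22 (SD 0.152), more than the median of 0.098 over all genes tested and less than the median of 0.692 over the 272 genes that were at least 2-fold higher. Both arrays of replicate 1 differed by 0.83, which is more than this, and 119 of 8018 genes with values on both arrays had a larger difference. The moderated standard error rests on the replicate means alone and leaves out this difference between dyes.

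By log2 fold change *Lsp2* was at place 5 of the 10042 genes, after *Cpr78E* (4.84), CG2444 (4.47), CG31698 (4.16) and CG30029 (4.13). By array, it was at place 16 of 9422 genes on array 1, at place 13 of 9019 on array 2 and at place 5 of 10234 on array 3. Genes whose ratios lay closest to those of *Lsp2* over the 3 arrays with a value were CG30029, with a root mean square difference of 0.329, *Ag5r* (0.433) and *Jig* (0.465), out of 7751 genes compared. All 3 were called higher, with log2 fold changes of 4.13, 3.50 and 3.42. On array 4, where *Lsp2* had no value, their ratios were 3.73, 3.05 and 2.98.

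**Figure D1:**
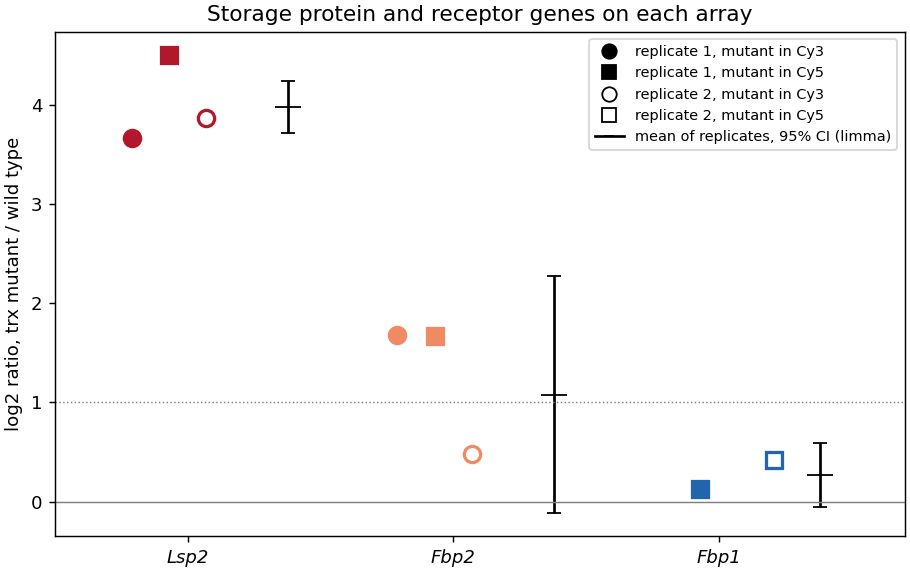
Log2 ratio of trx mutant over wild type on each array for *Lsp2*, *Fbp2* and *Fbp1*. Filled symbols are replicate 1, open symbols replicate 2, circles mutant RNA in Cy3, squares mutant RNA in Cy5, black bars the mean of the replicates with its 95% confidence interval (limma), and the dotted line a 2-fold difference. The 3 ratios of *Lsp2* lie between 3.67 and 4.50, above every ratio of the other genes, and *Fbp2* is higher on both arrays of replicate 1 (1.68 and 1.67) than in replicate 2 (0.48).

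*Fbp2*, the alcohol dehydrogenase relative, had ratios of 1.68 on array 1, 1.67 on array 2 and 0.48 on array 3, and no value on array 4. Both dye orientations of replicate 1 thus coincided within 0.01, while replicate 2 was 1.20 lower. As folds, *Fbp2* was 3.20-fold higher in replicate 1 and 1.40-fold higher in replicate 2. The log2 fold change was 1.08 (standard error 0.361, 95% confidence interval -0.11 to 2.27, adjusted p = 0.149, n = 2, limma), which is past the 2-fold limit and not past the test. At least 2-fold at any p were 2.71% of all genes on the higher side, with *Lsp2* and *Fbp2* among them, and 2.71% on the lower side, with 0 of the 3 genes. On the linear scale the interval runs from 0.924-fold to 4.84-fold.

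Only 139 of 10042 genes had replicates further apart than those of *Fbp2*, although 88 of the 272 genes at least 2-fold higher were among them. In 184 of these 272 genes replicate 1 had the larger ratio, as for *Fbp2*, and 114 of the 272 were not called. The call of *Fbp2* depended on how the arrays were treated. With the 4 arrays taken as independent samples it was called higher, at 1.28 (standard error 0.276, adjusted p = 0.0283), as it was with a term for the dye, at 1.38 (standard error 0.294, adjusted p = 0.0425). In both fits the 2 arrays of replicate 1, made from the same amplified RNA, count separately. The genes with the ratios closest to those of *Fbp2* over 3 arrays were *BomS5*, an immune-induced peptide gene of the Bomanin family, with a root mean square difference of 0.038, CG10154 (0.172) and CG14219 (0.192). *BomS5* had ratios of 1.73 and 1.71 in replicate 1 and of 0.50 and 0.33 in replicate 2, and like the other 2 it was not called.

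*Fbp1*, the receptor gene, had ratios of 0.13 on array 2 and 0.42 on array 4, both with the mutant RNA in Cy5, and no value on arrays 1 and 3. The dye could therefore not be balanced for this gene. Its log2 fold change was 0.27 (standard error 0.0983, 95% confidence interval -0.05 to 0.60, adjusted p = 0.165, n = 2, limma), and the upper end of the interval is a 1.51-fold difference. Values on these 2 arrays and no others were found in 66 genes, whereas 489 genes had the pattern of *Lsp2* and *Fbp2*, with values on arrays 1, 2 and 3. With 2 values, likeness says little: the closest of 8172 genes were *gem*, *pcs* and *DCP1*, at root mean square differences of 0.00948, 0.0105 and 0.0107, and none of them was called.

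Ratios of the 3 genes could be set side by side on the arrays they share. *Lsp2* exceeded *Fbp2* by 1.99 on array 1, by 2.83 on array 2 and by 3.39 on array 3. On array 2, the single array with a value for all 3 genes, *Lsp2* exceeded *Fbp1* by 4.38 and *Fbp2* exceeded *Fbp1* by 1.55. The order of *Lsp2* over *Fbp2* held on 3 of 3 shared arrays. With 2 biological replicates no exact test of a difference between genes could reach 0.05, and none was run.

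**Figure D2:**
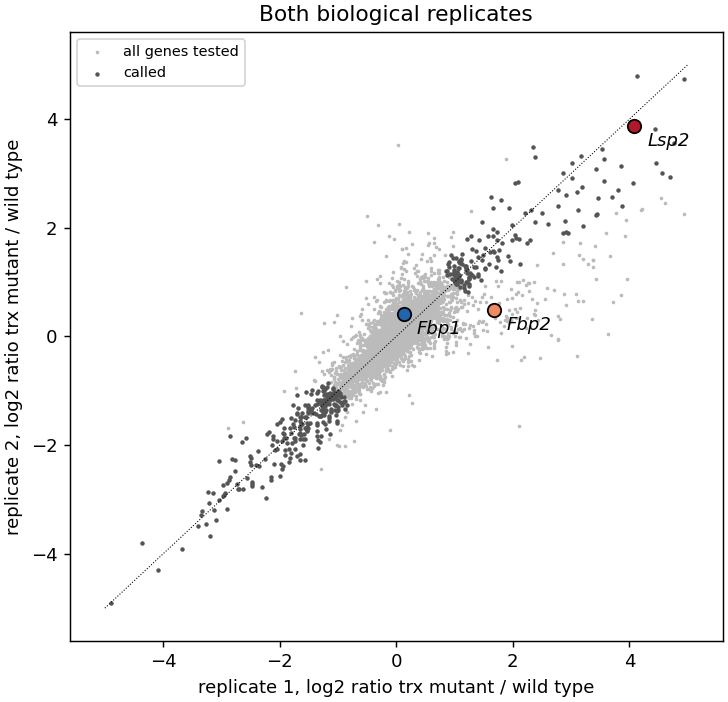
Log2 ratio of trx mutant over wild type in replicate 2 (vertical axis) against replicate 1 (horizontal axis) for 10042 genes, each the mean of the arrays with a value in that replicate. Dark points are genes called at an adjusted p under 0.05 and at least 2-fold, and the dotted line marks equal ratios. *Lsp2* lies close to this line (4.09 and 3.87), *Fbp2* below it (1.68 and 0.48) and *Fbp1* near the origin (0.13 and 0.42).

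The study asked whether genes that changed in *trx* mutants lie near each other on the chromosomes, and the neighbors of the storage protein genes were looked up for this reason. Of the 5 annotated genes on each side of each of the 3 genes, 30 in all, 17 were tested and 0 were called in limma. Of all genes tested, 4.09% were called in either direction. An unadjusted p under 0.05 (limma) was found for 4 of the 17 neighbors, against 3833 of the 10042 genes tested. Around *Lsp2*, the 7 neighbors tested had log2 fold changes between -0.16 and 0.19. These include *DEF8*, the next gene tested on one side, with 0.15 (standard error 0.063), and *Atg12*, a gene of autophagosome formation, with 0.19 (standard error 0.0673). At a share of 4.09% called, 0 calls among so few neighbors do not set them apart from other genes tested. Around *Fbp2* the 5 neighbors tested had values between -0.17 and 0.23, and around *Fbp1* the 5 tested lay between -0.31, for the fibroblast growth factor receptor gene *btl*, and 0.23. The antisense RNA genes annotated beside *Lsp2* were not analysed here.

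**Figure D3:**
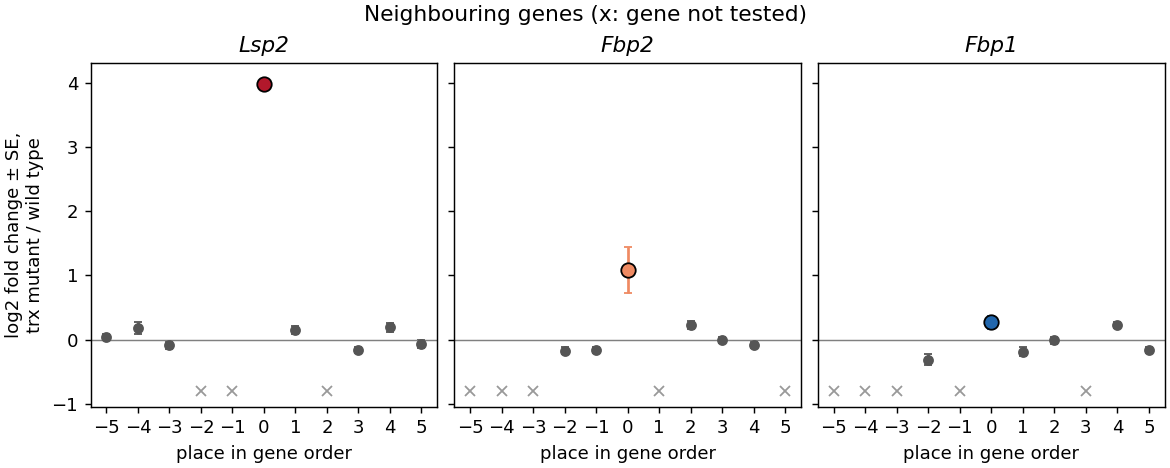
Log2 fold change (± standard error, limma) of *Lsp2*, *Fbp2* and *Fbp1*, at place 0, and of the annotated genes up to 5 places away on either side. Crosses mark genes that were not tested. The neighbors tested lie between -0.31 and 0.23, and *Lsp2* at 3.98.

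Further genes were taken from 13 lists, of which 12 held a gene tested. They cover pathways in which storage proteins take part and the fat body, and 4 of them hold markers of other cell types. Of the 108 genes tested in all lists 11, or 10.2%, were called, against 4.09% of all genes tested. Of these 11, 4 (*Sgs5*, *Sgs5bis*, *Jon25Bii* and *Jon65Aiv*) are markers of salivary gland or midgut. The lists were drawn up with earlier results of these data known, so these counts are a description. Among 10 transcription factors of the ecdysone cascade, 1 was called higher and 0 lower, with a list median of 0.02, beside a median of -0.02 over all genes. This was *vri*, the clock and ecdysone-response gene *vrille*, with ratios of 1.20, 0.95, 1.18 and 0.91 on arrays 1 to 4 which averaged 1.06 (standard error 0.0477, adjusted p = 0.0192). Its mean lies just past the 2-fold limit and was 1.00 without array 1 and 0.99 without array 3, where it was not called. The ecdysone receptor gene *EcR* had 0.37 (adjusted p = 0.142) and its partner *usp* 0.20 (adjusted p = 0.171). Of 7 transcription factors of the fat body 0 were called in limma (3 at an unadjusted p under 0.05), with a median of -0.10. They include the GATA factor gene *srp*, known to activate fat body genes, with 0.61 (standard error 0.0529, adjusted p = 0.0305), less than 2-fold.

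Uptake and breakdown of stored protein were represented by endocytic, lysosomal and autophagy genes. Of 10 genes of endocytosis and granule trafficking 0 were called in limma (5 at an unadjusted p under 0.05), with values between -0.37 and 0.67. *dor* and *car*, which encode subunits of a complex for vesicle fusion at the lysosome, had -0.02 and 0.12. Of 20 genes of lysosomal proteases and autophagy, 3 were called higher and 0 lower (1.57% and 2.52% of all genes tested). In this list 17 of the 20 had a value above 0, and the median was 0.24, beside -0.02 over all genes. *CtsB*, which encodes the lysosomal protease cathepsin B, had ratios of 1.19, 1.25, 1.90 and 1.69 on the 4 arrays which averaged 1.51 (standard error 0.178, adjusted p = 0.0411). *cathD*, which encodes cathepsin D, had 1.22 (standard error 0.10, adjusted p = 0.0286). Both cathepsin genes had the larger ratio in replicate 2, unlike *Fbp2*. For *Lsp2* the order of the replicates could not be told apart from the dye. With the mutant in Cy3 it had 3.67 on array 1 and 3.87 on array 3, and its single value in Cy5 was 4.50 on array 2. *Atg9*, which encodes a membrane protein of autophagy, had 1.02 (standard error 0.0491, adjusted p = 0.0193) and was not called without array 3, at 0.91.

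Many insect hexamerins are rich in aromatic amino acids, and a list of genes of aromatic amino acid metabolism was therefore examined. Of 10 such genes tested 1 was called higher and 0 lower (1.57% and 2.52% of all genes tested), with a median of 0.22. This was *hgo*, which encodes homogentisate dioxygenase of tyrosine breakdown, with ratios of 1.86, 1.68, 1.68 and 1.49 which averaged 1.68 (standard error 0.0717, adjusted p = 0.0192). *Ddc* and *ple*, of dopamine synthesis, had 1.22 (adjusted p = 0.15) and 0.86 (adjusted p = 0.434) and did not pass. Their replicates were far apart, with 0.54 in replicate 1 and 1.91 in replicate 2 for *Ddc*. For *ple* they had opposite signs, with -0.32 in replicate 1 and 2.05 in replicate 2. The 3 prophenoloxidase genes, whose products share the hemocyanin fold of the hexamerins, were not called in limma (0 at an unadjusted p under 0.05). *PPO1* had 0.38, *PPO2* had 0.56 and *PPO3* had 0.03. *Adh*, a well-known relative of *Fbp2*, shares its probes with *Adhr* and has no value of its own.

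The fat body itself was followed by marker genes that are not storage proteins. Of 10 fat body markers tested, 2 were called lower and 0 higher (2.52% and 1.57% of all genes tested). Their median was -0.08 and their range -1.75 to 0.83. *FASN1*, which encodes fatty acid synthase, had ratios of -2.08, -1.85, -1.68 and -1.36 which averaged -1.74 (standard error 0.139, adjusted p = 0.0280). *Lsd-1*, the gene of a perilipin that coats lipid droplets, had -1.75 (standard error 0.0949, adjusted p = 0.0213). One of its 2 probes had values on all 4 arrays, from -2.10 to -1.70, and the other a value of -0.61 on array 1. *FASN1* and *Lsd-1* were thus lower on every array while *Lsp2* was higher on every array with a value. This did not hold for all lipid genes of the list. Of the 10 markers 5 were above 0, among them *Lsd-2* (0.05) and *Lpin* (0.34), which were not called. *apolpp*, the gene of the main hemolymph lipoprotein, had -0.61 (adjusted p = 0.0443) and *Tsf1*, a transferrin gene, 0.83 (adjusted p = 0.0816), neither past both limits. Of 13 genes of fat body hormones and lipoproteins, some of which are also among the markers, 0 were called in limma (6 at an unadjusted p under 0.05), with a median of 0.10. In whole larvae, a smaller share of a cell type and less RNA per cell cannot be told apart.

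Markers of other larval tissues were set beside these values. Of 5 salivary gland markers tested 2 were called higher, where 1.57% of all genes tested were. Their median was 1.02 and their range -0.12 to 3.78. *Sgs5*, a salivary glue gene, had 4.56 on array 1 and 3.01 on array 3, both with the mutant in Cy3, and *Sgs5bis* had 2.03, 1.97 and 1.76 on arrays 1, 3 and 4, whereas *Sgs1* had -0.12. Of 10 midgut markers 2 were called higher, both serine proteases (*Jon65Aiv* with 3.13 and *Jon25Bii* with 2.85, neither called without array 1, where they had 3.61 and 3.25 with wider standard errors of 0.592 and 0.557 and adjusted p = 0.058 and 0.0618), the median was 2.04 and all 10 were above 0. The midgut median was 3.13 in replicate 1 and 0.92 in replicate 2, so that this median and *Fbp2* were higher in replicate 1. The salivary gland medians, 1.85 and 0.20, were both the values of *Sgs4*. In that list *Sgs5* (4.56 and 3.01) and *Sgs5bis* (2.03 and 1.87) were also higher in replicate 1. *Sgs1* (-0.19 and -0.05) and *sage* (0.07 and 0.14) were higher in replicate 2. Of 10 haemocyte markers and 6 muscle markers 0 were called in limma (5 and 2 at an unadjusted p under 0.05), with medians of 0.04 and 0.20. The part of these tissues in the ratios of *Lsp2* and *Fbp2* was not tested.

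**Figure D4:**
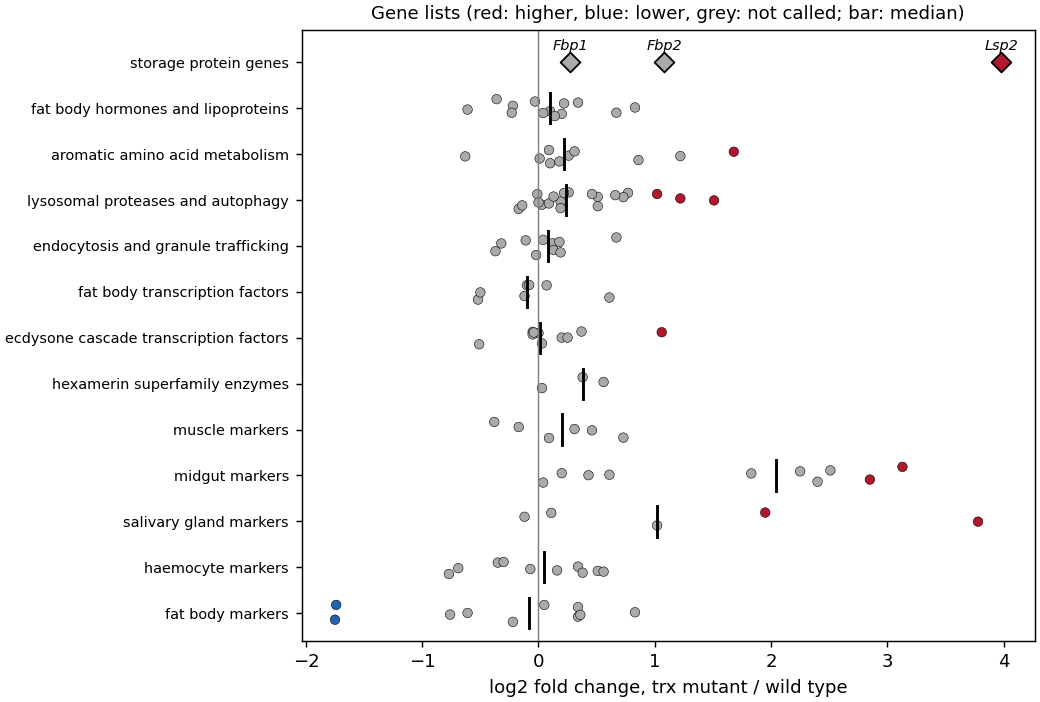
Log2 fold change of trx mutant over wild type (horizontal axis) for the genes tested in each list, with *Lsp2*, *Fbp2* and *Fbp1* as diamonds in the top row. Red points were called higher, blue points lower, grey points were not called, and the black bar is the list median. *Lsp2* at 3.98 lies beyond every gene of the lists, of which *Sgs5* at 3.78 is nearest, and *FASN1* and *Lsd-1* are the lowest at -1.74 and -1.75.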

How the data were processed

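The authors deposited 1 log2 ratio (mutant to wild type) for each spot. Scans had been read in GenePix Pro, and spots that failed the quality criteria had been discarded. Background correction was by normexp (limma), followed by OLIN within arrays and its median absolute deviation scaling between the 4 arrays. Arrays of opposite dye correlated above 0, so the ratios had been turned one way before deposit. No intensities are included, so the signal behind a ratio is unknown. Of 16416 probes, 13164 name 1 gene, 12674 of them under a current NCBI symbol (Release 6 plus ISO1 MT), and 101 that name several genes or none were left out. Removed spots stayed missing.

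For each gene, probes were averaged on an array and arrays within a replicate. limma 3.58.1 tested the mean of both replicates against 0 (R 4.3.3; prior degrees of freedom 1.80, prior SD 0.083), with Benjamini-Hochberg adjustment over 10042 genes. The fit was also run on log ratios simulated from its own prior, which checks the code and not the calls made here. Genes named are the storage protein genes, *trx*, called genes of the lists (at most 4 a list) and of the neighbors, the 3 genes nearest in ratio, and some genes not called. The storage protein genes, though listed by symbol, and the other lists were chosen with earlier results of these data known. Alternatives were another treatment of arrays and dyes, centring, scaling, probe choice, robust moderation, filters, and leaving out each array or replicate. Sequence comparisons were planned and not run, as no sequences were at hand.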

Additional observations from a re-analysis of the deposited data

Results flagged for a closer look

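Among the 9 called genes of the lists with values on all 4 arrays, 1 had an array far from the others. *Jon65Aiv*, a serine protease gene of the midgut, had a log2 ratio of 4.66 on array 2, against 2.53 to 2.74 on the other 3 arrays. The limit for such a flag is passed by chance in about 1 of 20 groups, and 9 genes were examined. The arrays are also 2 pairs rather than 4 independent samples. On the same array *Lsp2* had its highest ratio, 4.50. The storage protein genes had at most 3 values each and could not be examined in this way.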

How the results depend on the processing

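*Lsp2* was called higher under every alternative that gave it a value, with log2 fold changes from 3.77 to 4.19, and its replicates alone gave 4.09 and 3.87 with no test. It could not be tested without array 3, its only array in replicate 2, or where values on all 4 arrays were required, and in both cases 0 storage protein genes were called. *Fbp2* was called with 4 independent arrays (1.28), with the replicate as a random block (1.31) and with a dye term (1.38), so that 2 storage protein genes were then called. The random block used a correlation within replicates estimated at -0.112. Like the other 2 fits, it therefore made no allowance for likeness between arrays of the same RNA. Its replicates alone gave 1.68 and 0.48. *Fbp1* was called under no alternative, its replicates alone gave 0.13 and 0.42, and it could not be fitted without array 2, without array 4, with a dye term or where all 4 arrays were required. With no minimum fold change 1473 genes were called in place of 411, and 25 list genes in place of 11. Without array 1 the lists held 6 called genes: 3 of the 11 (*vri*, *Jon25Bii* and *Jon65Aiv*) were tested and not called, and *Sgs5* and *Sgs5bis*, whose only value in replicate 1 is on that array, could not be tested. The spread among wild-type larvae, the saturation of spots and the cause of missing spots could not be examined.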
